A study of Homo sapiens with 20 samples.

Results

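The 5 genes described here are sestrins and p53 metabolic stress targets. They are the sestrins SESN1, SESN2 and SESN3, the mTORC1 inhibitor DDIT4 and the fructose bisphosphate phosphatase TIGAR. They were taken by gene symbol and are 5 of 58288 genes counted. All 5 were among the 16478 genes tested, of 34160 with any count. The libraries came from polyadenylated RNA of DOHH2 and U2932, established lines that the series describes as diffuse large B-cell lymphoma (DLBCL), each given either the solvent DMSO or a compound named TK, which the labels describe no further. DOHH2 was sampled after 8 h in DMSO (3 libraries) and in TK (3), and after 18 h in DMSO (2) and in TK (3). U2932 was sampled after 8 h in DMSO (3 libraries) and in TK (2), and after 18 h in DMSO (1) and in TK (3). Each line stands for 1 tumour, the dose of TK is not given in the labels, and no label says whether libraries of a group came from separate cultures, so the spread behind every p-value may be a technical one.

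Sestrins are small stress-induced proteins that hold back mTORC1, the kinase complex that drives growth when amino acids are plentiful: SESN1 and SESN2 bind the GATOR2 complex and release it when leucine is present. DDIT4, also called REDD1, acts on the same kinase through the TSC complex and is induced by low oxygen, glucocorticoids and other stress, while TIGAR degrades fructose bisphosphate, which slows glycolysis and directs glucose to the pentose phosphate pathway. SESN1, SESN2, DDIT4 and TIGAR are known p53 targets, SESN2 and DDIT4 also answer to the stress factor ATF4, and SESN3 is known as a FOXO target.

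Levels are given as CPM, the usual depth-scaled count of a gene in a library with TMM scaling, and levels of different genes are compared as RPKM, which also divides by the length of the gene's exons in kilobases. A gene was called higher or lower where edgeR's quasi-likelihood test gave an adjusted p (Benjamini-Hochberg over all genes tested) under 0.05. The libraries held 30363255 to 52275430 counts in genes, and the lowest count of any of the 5 genes in a library was 243. Reads without a unique alignment made up 56.6% of the total in replicate 1 of DOHH2 TK 18 h, against 20.7 to 34.3% elsewhere. DOHH2 TK 8 h replicate 1 had the lowest mitochondrial share, 3.29% of its counts in genes. The B cell markers MS4A1, CD79A, CD79B, PAX5 and CD22 had counts in every library, between 40.3 and 1507 CPM. Of the T cell markers, CD3D was at 0 in all 11 DOHH2 libraries and in 8 of 9 U2932 libraries, CD2 was at 0 in 7 libraries of each line, and CD3E had counts in every library, at 0.0287 to 0.492 CPM. The germinal centre markers BCL6 (0 to 0.358 CPM), LMO2 (0.162 to 0.623) and MYBL1 (0.459 to 1.74) were near absent in DOHH2, against medians of 384, 21.4 and 56.4 CPM in U2932, while MME (18.4 to 53.8 against 31.2 to 53.9) and S1PR2 (28.6 to 44.2 against 33.3 to 55.7) had overlapping ranges. Of the activated B cell markers, IRF4 (674 to 962 against 326 to 420 CPM) and CCND2 (72.6 to 136 against 0 to 3.15) were higher in DOHH2, and FOXP1 and PIM1 were higher in U2932. DOHH2 is commonly classed as a germinal centre type and U2932 as an activated B cell type, so several of these levels go against the labels; the identity of the lines was not tested, and DOHH2 and U2932 stand throughout for the libraries so labelled. The epithelial marker EPCAM was at 21.0 to 32.2 CPM in U2932, where KRT8 of the same list was at 0.0570 to 1.06 CPM, and the fibroblast collagen gene COL1A1 was at 4.96 to 29.2 CPM in DOHH2, where COL1A2 was at 0.0223 to 1.40 CPM; whether these genes had a part in the results below was not tested. Since counts are relative to a library's total, a change in the number of cells that express a gene and a change in RNA per cell cannot be told apart.

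After 18 h of TK, DOHH2 had 2.24-fold more SESN1 than in DMSO (27.8 ± 0.963 CPM, SD, n = 3, against 12.4 ± 0.338, n = 2), and SESN2, SESN3 and TIGAR were also above DMSO in every TK library, though only SESN1 passed the test over all genes. In that contrast 0.0668% of all genes tested were called higher, and 11.9% had all TK libraries above all DMSO libraries. DDIT4 had means of 102 CPM with TK and 103 CPM without. No TK contrast in U2932, and none at 8 h in DOHH2, passed the test for any of the 5 genes. Over all genes, 0% were called at 8 h in either line and 0.0182% in U2932 at 18 h, where DMSO had 1 library. By edgeR's test, the larger SESN1 change in DOHH2 than in U2932 at 18 h did not pass, while by DESeq2 it did. The plot of levels in every library shows each gene across the 8 groups.

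**Figure D1:**
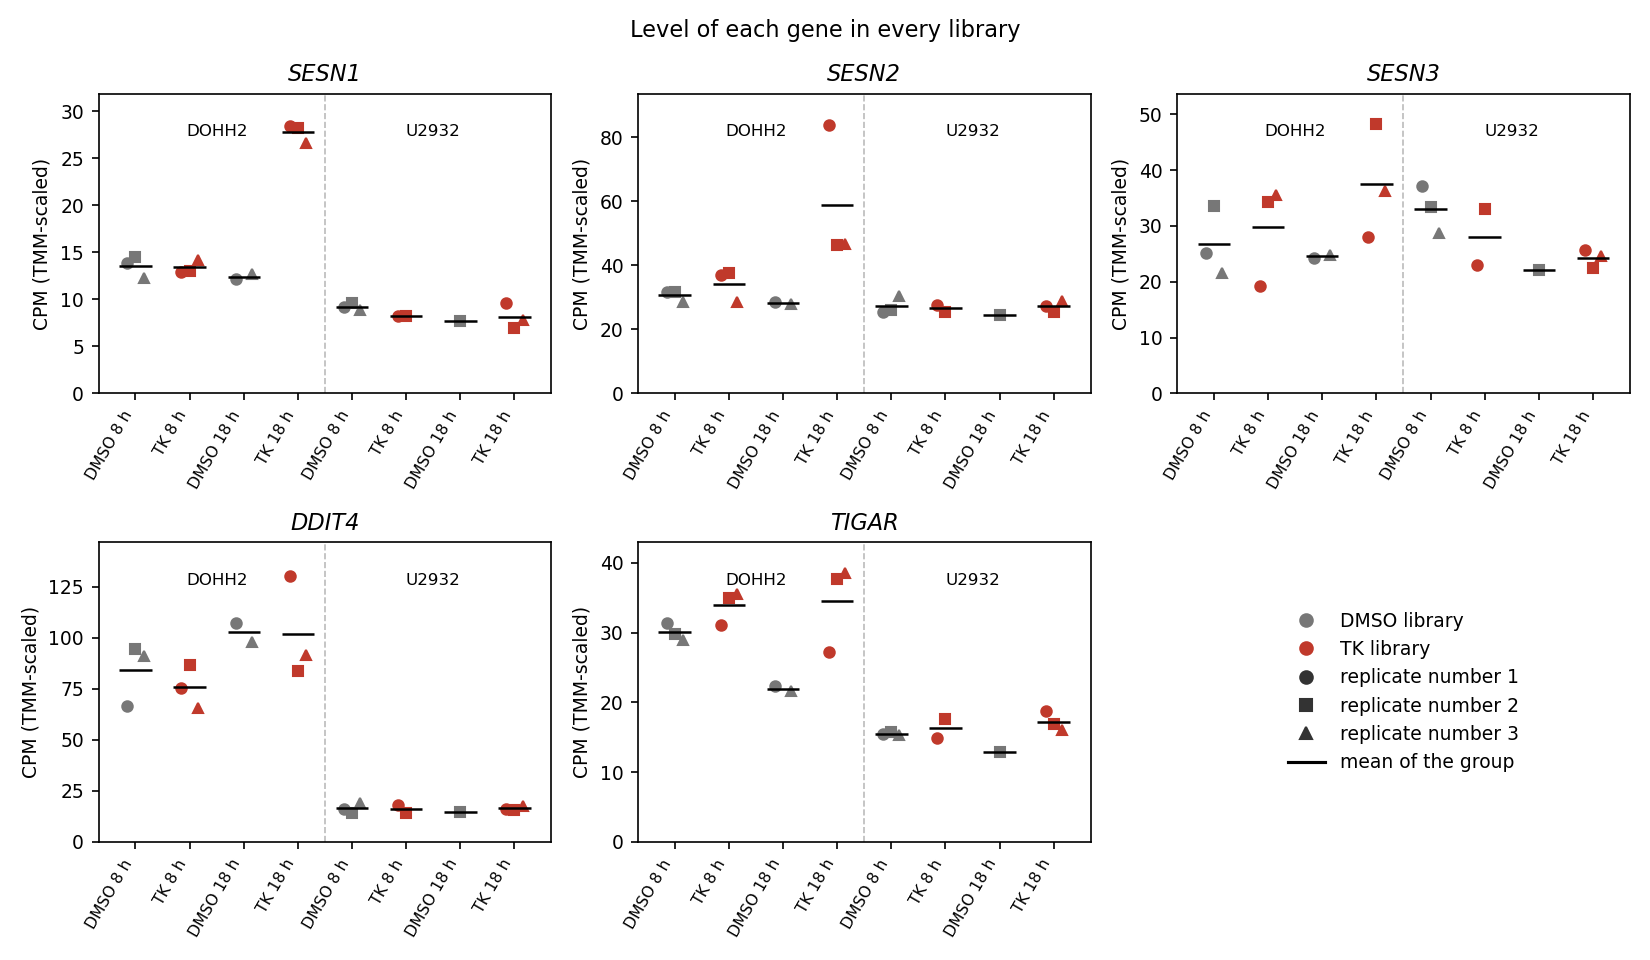
Level of each gene in CPM (vertical axis, TMM-scaled, each panel with its own scale from 0) in all 20 libraries by group of line, compound and time (horizontal axis). Symbols mark the replicate number, grey DMSO and red TK, and the bar is the group mean; the DOHH2 TK 18 h libraries stand at 26.7 to 28.4 CPM for SESN1 against 12.2 and 12.6 in DMSO, and DDIT4 is higher in every DOHH2 library than in any U2932 library.

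SESN1 (ENSG00000080546.13) lies on chromosome 6 from 108986437 to 109094819 on the minus strand (GRCh38, GENCODE v29). Its product binds GATOR2 and restrains mTORC1. RefSeq lists 3 starts for the gene. The stretch of 250 bases upstream of the innermost start, chr6:109008989-109009238 (GRCh38.p14, minus strand, printed 5′ to 3′ as transcribed), is shown because it is the only one of the 7 such windows of the 5 genes that holds a match to the p53 half-site, searched on both strands. It lies inside the gene and holds no annotated exon base. The capitals mark a CCAAT box and the p53 half-site match GGACAAGTCT, whose distance from the start is -49.
SESN1, innermost start: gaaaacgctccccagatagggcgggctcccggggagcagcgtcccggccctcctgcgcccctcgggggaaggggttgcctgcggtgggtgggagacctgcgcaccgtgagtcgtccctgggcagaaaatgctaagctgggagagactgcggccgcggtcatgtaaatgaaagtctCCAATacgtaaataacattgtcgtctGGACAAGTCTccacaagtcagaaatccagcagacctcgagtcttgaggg
Of 35116 RefSeq windows of this length, 5.57% hold a p53 half-site. The counts per gene do not tell the starts apart. The next start outward had a match to an NRF2 element (TGACNNNGC on either strand), found in 10.9% of all windows. No window of the 5 genes held the ATF4 element TGATGCAA, the FOXO element GTAAACA or the E-box CACGTG, which were in 0.772%, 2.98% and 6.35% of all windows.

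In DOHH2, SESN1 stood at 13.9, 14.5 and 12.3 CPM in DMSO at 8 h and at 12.9, 13.1 and 14.2 CPM in TK at 8 h. At 18 h it was at 12.2 and 12.6 CPM in DMSO and at 28.4, 28.2 and 26.7 CPM in TK. The TK libraries of 18 h were the highest of all 20 and the 8 h groups overlapped. The mean rose from 12.4 ± 0.338 (SD, n = 2) to 27.8 ± 0.963 CPM (SD, n = 3) at 18 h, a log2 change of 1.16 (SE 0.15, 95% confidence interval 0.86 to 1.47) with an adjusted p of 0.000641 by edgeR's quasi-likelihood test (Benjamini-Hochberg adjusted), the third smallest p of all genes. The call rested on both DMSO libraries: without replicate 1 the log2 change was 1.13 (adjusted p = 0.0645, edgeR) and without replicate 3 it was 1.19 (adjusted p = 0.0686, edgeR). At 8 h the log2 change was -0.02 (95% confidence interval -0.29 to 0.25).

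In U2932, SESN1 stood at 9.21, 9.59 and 8.88 CPM in DMSO at 8 h and at 8.19 and 8.21 CPM in TK. By 18 h the level was at 7.75 CPM in the single DMSO library and at 9.60, 6.93 and 7.78 CPM in TK. Both TK libraries of 8 h were below the 3 DMSO libraries, by a log2 change of -0.17 (SE 0.15) that did not pass the test, and at 18 h the TK libraries lay on both sides of the DMSO library. Among the 5 genes SESN1 alone had TK libraries of U2932 all below DMSO at 8 h, as did 7.24% of all genes tested. The log2 change at 18 h was 0.06 (95% confidence interval -0.32 to 0.44), with the lone DMSO library assumed to vary like the other groups.

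SESN2 (ENSG00000130766.4), on chromosome 1 from 28259527 to 28282491 on the plus strand, encodes the leucine sensor of the family. Its upstream window, chr1:28259268-28259517 (GRCh38.p14, plus strand, RefSeq), is shown as that of the sestrin with the highest level per length. The capitals mark a pair of CCAAT boxes on the opposite strand, written ATTGG.
SESN2: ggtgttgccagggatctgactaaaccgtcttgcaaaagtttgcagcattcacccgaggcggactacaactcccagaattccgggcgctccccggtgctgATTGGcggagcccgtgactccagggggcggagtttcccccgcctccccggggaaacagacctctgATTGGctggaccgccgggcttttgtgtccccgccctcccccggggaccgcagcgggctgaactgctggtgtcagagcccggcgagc
CCAAT on either strand was in 5 of the 7 windows of the 5 genes and in 32.0% of all windows. The window held no match to the p53 half-site as searched, which says only that these letters are not in it.

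In DOHH2, SESN2 stood at 31.8, 31.7 and 28.5 CPM in DMSO at 8 h and at 37.0, 37.5 and 28.6 CPM in TK. The 18 h libraries were at 28.6 and 27.9 CPM in DMSO and at 83.8, 46.5 and 46.7 CPM in TK. All TK libraries of 18 h were above every other library of the series, and replicate 1, the library with the most reads without a unique alignment, was far above the other two. The means at 18 h were 28.3 ± 0.553 (SD, n = 2) in DMSO and 59.0 ± 21.5 CPM (SD, n = 3) in TK, a log2 change of 1.06 (SE 0.20, 95% confidence interval 0.64 to 1.49) whose adjusted p of 0.0518 in edgeR's quasi-likelihood test just missed the threshold. It passed in edgeR without any one TK library, with log2 changes from 0.72 without replicate 1 to 1.21 without replicate 2 and adjusted p-values of 0.0486, 0.0230 and 0.0340 without replicates 1, 2 and 3. It did not pass without either DMSO library, where the adjusted p reached 0.885 (edgeR). DESeq2 gave 1.07 with an adjusted p of 0.000417.

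SESN2 in U2932 stood between 24.4 and 30.6 CPM in all 9 libraries. It was at 25.4, 26.0 and 30.6 CPM in DMSO and at 27.8 and 25.6 CPM in TK at 8 h. At 18 h the gene was at 24.4 CPM in DMSO and at 27.4, 25.5 and 28.8 CPM in TK. The groups overlapped at 8 h, where the log2 change was -0.04 (95% confidence interval -0.45 to 0.38), and at 18 h the TK libraries were slightly above the single DMSO library, with a log2 change of 0.16 (-0.37 to 0.68).

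SESN3 (ENSG00000149212.11), on chromosome 11 from 95165513 to 95232541 on the minus strand, is the sestrin best known as a FOXO target. Its coefficient of variation was 23.1% over the DOHH2 DMSO 8 h libraries, 30.6% in TK 8 h and 27.1% in TK 18 h. In DOHH2 DMSO 18 h, with 2 libraries, it was 1.37%. In DOHH2 SESN3 stood at 25.2, 33.7 and 21.6 CPM in DMSO and at 19.3, 34.3 and 35.6 CPM in TK at 8 h. The 18 h values were 24.3 and 24.8 CPM in DMSO and 28.1, 48.3 and 36.2 CPM in TK. The groups overlapped at 8 h and not at 18 h, and replicate 1 of TK, which stood apart in its alignment or mitochondrial share, was the lowest of its group at both times. The log2 change at 18 h was 0.61 (SE 0.25, 95% confidence interval 0.09 to 1.13), with an adjusted p of 0.501 in edgeR's quasi-likelihood test, so it did not pass.

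In U2932, SESN3 stood at 37.1, 33.5 and 28.7 CPM in DMSO and at 23.0 and 33.0 CPM in TK at 8 h. By 18 h it stood at 22.2 CPM in DMSO and at 25.8, 22.6 and 24.7 CPM in TK. The groups overlapped at 8 h, and the 18 h libraries of both treatments were all below the DMSO libraries of 8 h. The log2 change with TK was -0.24 (SE 0.25) at 8 h and 0.14 (SE 0.31) at 18 h, and neither passed.

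Per length, SESN2 was the most abundant sestrin in every group of both lines. Its mean share of the summed RPKM of the 3 sestrins was between 61.5% in U2932 DMSO 8 h and 67.0% in U2932 TK 18 h. In 8 h groups of U2932 this order rested on the exon lengths. There the CPM means were higher for SESN3 than for SESN2, 33.1 against 27.3 in DMSO and 28.0 against 26.7 in TK. In all other groups the CPM mean of SESN2 was the higher. The summed RPKM of DOHH2 at 18 h was 12.9 ± 0.0624 (SD, n = 2) in DMSO and 26.1 ± 5.60 (SD, n = 3) in TK. In DOHH2, SESN2 made up 63.3 ± 0.934% of that sum in DMSO (SD, n = 2) and 64.3 ± 9.22% in TK (SD, n = 3). SESN1 held 18.7 ± 0.601% (SD, n = 2) in DMSO and 21.3 ± 3.66% (SD, n = 3) in TK. The summed level was thus higher in TK while the shares overlapped, and for SESN1 and SESN2 that overlap rested on TK replicate 1. SESN1 held 17.1% there, below both DMSO libraries (18.3 and 19.2%), and 23.4 and 23.5% in the other TK libraries. SESN2 held 74.7% in TK replicate 1, above both DMSO libraries (62.6 and 63.9%), and 57.2 and 61.0% in the others.

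DDIT4 (ENSG00000168209.4), a short gene on chromosome 10 from 72273920 to 72276036 on the plus strand, restrains mTORC1 through the TSC complex. In DOHH2 it stood at 66.4, 94.6 and 91.0 CPM in DMSO and at 75.2, 86.6 and 65.8 CPM in TK at 8 h. At 18 h the level was 107 and 97.9 CPM in DMSO and 130, 83.9 and 91.5 CPM in TK. The TK libraries of 18 h lay on both sides of the DMSO libraries, with replicate 1 the highest of all. The log2 change was -0.01 (SE 0.19, 95% confidence interval -0.40 to 0.38) at 18 h and -0.15 (-0.50 to 0.21) at 8 h. With DESeq2 size factors in edgeR the 18 h value was 0.00123, where the median of all genes moved by 0.00885. In U2932, DDIT4 was between 14.1 and 19.0 CPM in all 9 libraries, with log2 changes of -0.02 (-0.43 to 0.38) at 8 h and 0.16 (-0.36 to 0.68) at 18 h. The antisense gene DDIT4-AS1 covers 41.2% of the exon bases of DDIT4 and had 0 counts in every library; how reads of overlapping genes were assigned is not given in the sources used here.

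TIGAR (ENSG00000078237.6) lies on chromosome 12 from 4307763 to 4354593 on the plus strand. In DOHH2 it stood at 31.4, 29.8 and 28.9 CPM in DMSO and at 31.1, 35.0 and 35.6 CPM in TK at 8 h. The 18 h levels were 22.4 and 21.6 CPM in DMSO and 27.2, 37.7 and 38.5 CPM in TK. The 18 h groups did not overlap, and the DMSO libraries of 18 h were below all other DOHH2 libraries. The log2 change at 18 h was 0.65 (SE 0.15, 95% confidence interval 0.34 to 0.96) with an adjusted p of 0.139 in edgeR's quasi-likelihood test, and without TK replicate 1, the lowest of its group, it was 0.79 with an adjusted p of 0.00829. DESeq2 gave 0.66 with an adjusted p of 0.00232. Set against DMSO of 8 h and 18 h together, the log2 change was 0.38 (adjusted p = 0.174, edgeR). The TK mean of 18 h was close to that of 8 h, 34.5 ± 6.31 against 33.9 ± 2.43 CPM (SD, n = 3 each), whereas the DMSO mean was 22.0 ± 0.548 (SD, n = 2) at 18 h and 30.1 ± 1.28 CPM (SD, n = 3) at 8 h. That difference between DMSO times had a log2 change of -0.45 (SE 0.15) and did not pass, with an adjusted p of 0.216 in edgeR's test.

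In U2932, TIGAR stood at 15.5, 15.8 and 15.3 CPM in DMSO and at 14.8 and 17.7 CPM in TK at 8 h. After 18 h it was at 12.9 CPM in DMSO and at 18.8, 16.9 and 16.1 CPM in TK. The groups overlapped at 8 h, and at 18 h all TK libraries were above the single DMSO library. The log2 change was 0.07 (SE 0.15) at 8 h and 0.42 (SE 0.19, 95% confidence interval 0.02 to 0.81) at 18 h, the latter with an adjusted p of 0.647 in edgeR's test. The gene AC008012.1 shares 42.6% of the exon bases of TIGAR on the same strand in GENCODE v29, and has no row by that symbol in the files used here.

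Counted over the 5 genes, 1 rose with TK in DOHH2 at 18 h, where 0.0668% of all genes tested rose, and 4 did not pass. All TK libraries were above all DMSO libraries for 4 of the 5 genes, against 11.9% of all genes tested. The median log2 change of the 5 was 0.65, beside 0.02 over all genes. The 5 were chosen with earlier results of these data known and share the same libraries, so these counts are descriptions. In U2932 at 18 h none of the 5 was called by edgeR, where 0.0182% of all genes were, or by DESeq2, TIGAR alone had an unadjusted p under 0.05, and 4 of 5 had all TK libraries above the single DMSO library, as did 31.2% of all genes. At 8 h none was called in DOHH2, where 0% of genes were, or in U2932, where 0% were. Both 8 h contrasts gave 0 genes with DESeq2 too, while 497 genes in DOHH2 (3.02%) and 276 in U2932 (1.67%) had an unadjusted p under 0.05 in edgeR's test, none of them among the 5. The medians of the 5 were 0.15 and -0.04 at 8 h. The plot of changes with their intervals shows the 4 contrasts side by side.

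**Figure D2:**
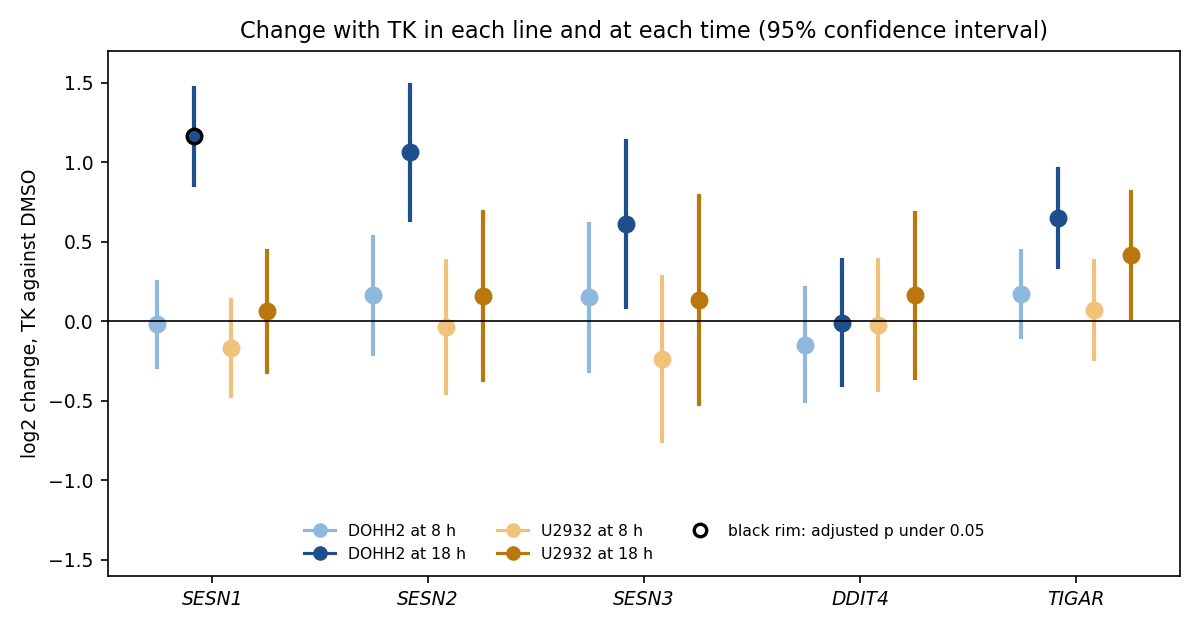
Log2 change with TK against DMSO (vertical axis) of each gene in DOHH2 and U2932 at 8 h and 18 h, with 95% confidence intervals from edgeR's quasi-likelihood fit; a black rim marks an adjusted p under 0.05. SESN1 in DOHH2 at 18 h, at 1.16, is the one point with a rim, and the intervals of SESN2, SESN3 and TIGAR in DOHH2 at 18 h and of TIGAR in U2932 at 18 h also lie above 0.

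Leaving out each library of the 18 h contrast of DOHH2 in turn kept the log2 change of SESN1 between 1.13 and 1.19. That of SESN2 moved between 0.72 and 1.21, that of SESN3 between 0.39 and 0.78, and that of TIGAR between 0.56 and 0.79. DDIT4 moved between -0.23 and 0.11. SESN1 was thus the least dependent on any single library in size, although its call needed both DMSO libraries.

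**Figure D3:**
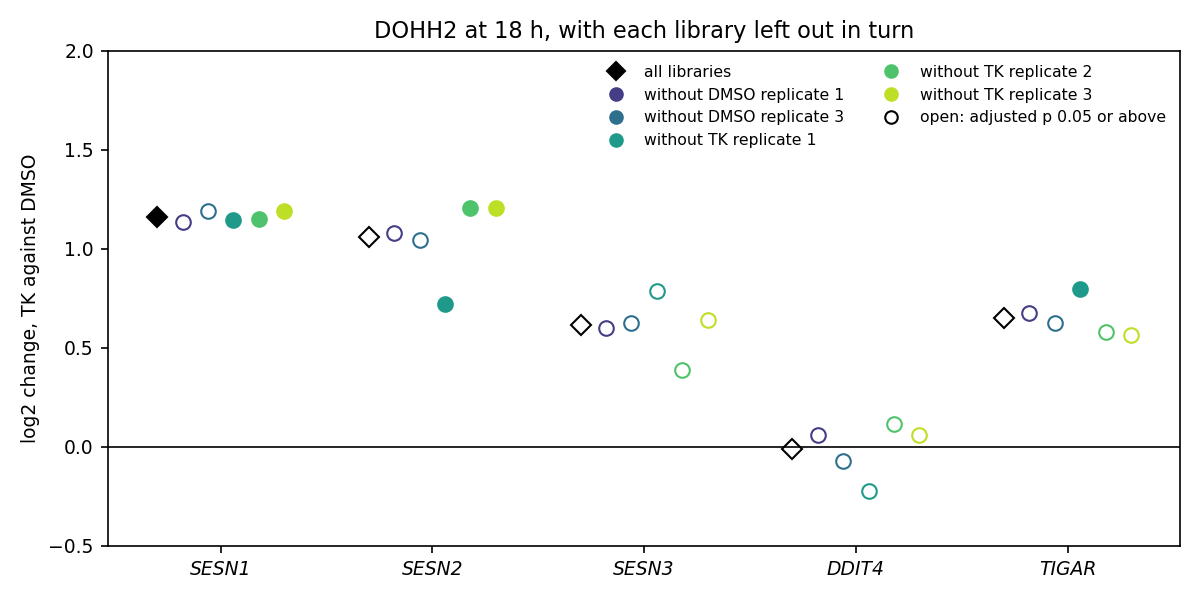
Log2 change with TK in DOHH2 at 18 h (vertical axis) of each gene with all libraries (diamonds) and with each of the 5 libraries of the contrast left out in turn (circles, by colour); open symbols have an adjusted p of 0.05 or above. SESN1 stays between 1.13 and 1.19 while SESN2 is at 0.72 without TK replicate 1.

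Whether the change with TK differed between the lines was tested directly. At 18 h the log2 change of SESN1 was larger in DOHH2 than in U2932 by 1.10 (SE 0.23, 95% confidence interval 0.63 to 1.57), with an adjusted p of 0.150 in edgeR's quasi-likelihood test, and with 1.12 and an adjusted p of 0.000631 in DESeq2. SESN2 differed by 0.90 (SE 0.31, 0.25 to 1.56), SESN3 by 0.48 (-0.34 to 1.30), TIGAR by 0.23 (-0.26 to 0.72) and DDIT4 by -0.17 (-0.82 to 0.48). None of the 5 passed in edgeR, where 0.0243% of all genes did, and the U2932 side rests on 1 DMSO library. At 8 h none passed, beside 0% of all genes, and 316 genes had an unadjusted p under 0.05, none of them among the 5.

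Whether the change differed between the times was tested likewise. In DOHH2 the log2 change of SESN1 was larger at 18 h than at 8 h by 1.18 (SE 0.19, 95% confidence interval 0.78 to 1.58), which passed with an adjusted p of 0.0408 in edgeR's quasi-likelihood test. It was 1 of 5 called higher, beside 0.0121% of all genes. Without any one of the 11 DOHH2 libraries the difference was between 1.13 and 1.25 and the adjusted p between 0.0518 and 0.747, so the call needed each of them, and with the DOHH2 libraries alone it was 1.17 (adjusted p = 0.318, edgeR). SESN2 differed by 0.90 (SE 0.27), TIGAR by 0.48 (SE 0.20), SESN3 by 0.46 (SE 0.33) and DDIT4 by 0.14 (SE 0.25), and none of these passed. In U2932 none of the 5 passed, with differences from 0.19 to 0.38 and no unadjusted p under 0.05, beside 0.00607% of all genes.

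The levels of the lines differed most for DDIT4. Its lowest DOHH2 library, at 65.8 CPM, was above its highest U2932 library, at 19.0 CPM. In DMSO at 8 h DDIT4 was higher in DOHH2 by a log2 change of 2.35 (SE 0.18), 84.0 ± 15.3 against 16.5 ± 2.34 CPM (SD, n = 3 each), with an adjusted p of 2.98e-10 in edgeR's quasi-likelihood test. TIGAR was higher by 0.95 (SE 0.13; 30.1 ± 1.28 against 15.5 ± 0.259 CPM, SD, n = 3 each) and SESN1 by 0.56 (SE 0.13; 13.6 ± 1.15 against 9.23 ± 0.358 CPM, SD, n = 3 each). SESN2, at 0.17 (-0.20 to 0.54), and SESN3, at -0.30 (-0.76 to 0.16), did not pass. The 3 of 5 called higher in DOHH2 stand beside 33% of all genes tested. In TK at 18 h all 5 were called higher in DOHH2, beside 34.2% of all genes, with log2 differences of 2.63 for DDIT4, 1.78 for SESN1, 1.11 for SESN2, 0.999 for TIGAR and 0.63 for SESN3. The call of SESN3 was lost without DOHH2 replicate 2 (0.40, adjusted p = 0.130, edgeR) or U2932 replicate 2 (0.56, adjusted p = 0.0609, edgeR).

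Ordered by group mean, SESN1 and SESN2 were each highest in DOHH2 TK 18 h, without overlap with the next group, DOHH2 DMSO 8 h for SESN1 and DOHH2 TK 8 h for SESN2. Below it came, for SESN1, the other 3 DOHH2 groups and then the 4 U2932 groups, with a gap between the lines. Among these, the neighbours DOHH2 TK 8 h and DOHH2 DMSO 18 h did not overlap, nor did U2932 DMSO 8 h and U2932 TK 8 h. SESN2 showed no such gap, its DOHH2 DMSO 18 h and U2932 DMSO 8 h groups overlapping. For SESN3 all neighbours in the order overlapped except the last pair, U2932 TK 18 h and the single U2932 DMSO 18 h library, and the lines were interleaved. DDIT4 and TIGAR had all 4 DOHH2 groups above the 4 U2932 groups without overlap between the lines. Per length, DDIT4 was the most abundant of the 5 in DOHH2, at group means of 36.9 to 49.8 RPKM, followed by SESN2 at 8.18 to 17.1, TIGAR at 5.47 to 8.58, and then SESN1 at 2.42 to 5.42 and SESN3 at 2.32 to 3.55 RPKM, whose ranges of group means overlapped and of which SESN3 had the higher mean in TK at 8 h (2.81 against 2.62 RPKM). In U2932 DDIT4, at 7.13 to 8.00 RPKM, and SESN2, at 7.07 to 7.92 RPKM, had overlapping ranges of group means, and TIGAR was at 3.21 to 4.30, SESN3 at 2.10 to 3.13 and SESN1 at 1.51 to 1.80 RPKM.

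Between 18 h and 8 h in DMSO none of the 5 genes passed the test. That was so in DOHH2, where 0.631% of all genes were called and TIGAR alone of the 5 had an unadjusted p under 0.05, and in U2932, where 0.0364% were called and none of the 5 had one. With TK in DOHH2, 2 of the 5 were higher at 18 h than at 8 h, beside 0.68% of all genes: SESN1 by 1.05 (SE 0.13, adjusted p = 0.000212) and SESN2 by 0.78 (SE 0.18, adjusted p = 0.0330) in edgeR's quasi-likelihood test. The call of SESN2 was lost without TK 8 h replicate 1 (0.84, adjusted p = 0.0782) or replicate 2 (0.85, adjusted p = 0.111) and without TK 18 h replicate 1 (0.44, adjusted p = 0.0737) in the same edgeR test, and with the DOHH2 libraries alone (0.77, adjusted p = 0.124, edgeR). DDIT4, at 0.42 (SE 0.17), SESN3, at 0.34 (SE 0.22), and TIGAR, at 0.02 (SE 0.13), did not pass. With TK in U2932 none of the 5 passed, beside 0.218% of all genes, with log2 changes from -0.20 for SESN3 to 0.08 for TIGAR.

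Lists of genes that work with or beside the 5 were followed in the same contrasts, without the 5 themselves. The lists were chosen with earlier results of these data known, and their genes share the same libraries. Counts and medians of a list are thus descriptions and not tests. Of 32 other p53 targets tested, 2 rose with TK in DOHH2 at 18 h, beside 0.0668% of all genes, 0 fell and 30 did not pass, and all 32 lay above 0 on the log2 scale (median 0.59), where 52.9% of all genes were positive with a median of 0.02. The 2 were MDM2 and EDA2R. MDM2, the ubiquitin ligase that degrades p53, was at 438 ± 50.7 (SD, n = 3) against 194 ± 16.6 CPM (SD, n = 2). Its log2 change was 1.17 (adjusted p = 0.000641, edgeR's quasi-likelihood test). EDA2R, a receptor of the TNF receptor family, was at 22.3 ± 2.16 against 10.6 ± 0.0744 CPM. Its log2 change was 1.07 (adjusted p = 0.0403, the same edgeR test). Whether these 2 calls held with a library left out was not followed gene by gene. Without DMSO replicate 3 of 18 h they could not both have held, given how few genes were called. In the same contrast 22 of the 32 had an unadjusted p under 0.05, beside 8.56% of all genes, and DESeq2 called 7, beside 0.73% of all genes: FAS, BBC3, TNFRSF10B, CDKN1A, EDA2R, MDM2 and ZMAT3. In U2932 at 18 h none of the 32 was called by edgeR or DESeq2, 4 had an unadjusted p under 0.05, beside 7.45% of all genes, 18 were positive and the median was 0.04. At 8 h the medians were 0.06 in DOHH2 and -0.04 in U2932.

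A list of metabolism and redox genes linked to p53 had 15 genes tested in 16 rows, SCO2 having a pair of rows of opposite sign (-0.41 and 0.26). None was called in DOHH2 at 18 h and 8 rows were positive, and RRM2B, a subunit of ribonucleotide reductase, had the smallest p with a log2 change of 0.72. RRM2B, TP53I3, FDXR and TP53INP1 are also among the 32 p53 targets above, and of the 12 rows without these 4 genes 4 were positive (median -0.15). Signs were counted without regard to whether p53 is known to raise or lower a gene. A list of 15 genes covered GATOR2, GATOR1 and KICSTOR, the partners of the sestrins, and also held CASTOR1, CASTOR2 and BMT2. Of these 15, 5 were positive (median -0.10), and NPRL2, a GATOR1 subunit, had the smallest p with -0.34. Another list of 22 genes covered mTORC1, the Rag GTPases and the TSC complex, and also held the LAMTOR genes, FLCN, FNIP1, FNIP2 and SLC38A9. Of these 22, 13 were positive (median 0.06), and MLST8, an mTORC1 subunit, was at -0.42. Of 9 AMPK subunits and kinases 7 were positive (median 0.09), with PRKAB1 at 0.21. No gene of these 4 lists was called in DOHH2 at 18 h by edgeR or DESeq2, and the numbers with an unadjusted p under 0.05 were, in this order, 4 of 16, 2 of 15, 5 of 22 and 0 of 9, beside 8.56% of all genes. Of the 12 metabolism rows outside the p53 targets it was 1.

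Lists linked to other inputs of the 5 genes also held no gene called by edgeR in DOHH2 at 18 h. Of 23 genes of the ATF4 pathway 11 were positive (median -0.00167), and the stress factor ATF3 had the smallest p with 0.95; 8 had an unadjusted p under 0.05, beside 8.56% of all genes, and DESeq2 called 4, beside 0.73% of all genes: PPP1R15A, CHAC1, ATF3 and DDIT3. Of 14 FOXO factors and targets 11 were positive (median 0.18), with KLF2, a quiescence factor of lymphocytes, at -1.03 (adjusted p = 0.143, edgeR), and DESeq2 called KLF2 and GABARAPL1, 2 of 5 with an unadjusted p under 0.05. Of 16 targets of HIF and the glucocorticoid receptor 9 were positive (median 0.06), with ADM at -0.54. Of 16 genes of fructose bisphosphate and pentose phosphate metabolism, the pathways TIGAR acts on, 1 was positive, PFKFB2, which makes the bisphosphate, at 0.59, and the median was -0.13. Of 14 peroxiredoxins and KEAP1-NRF2 partners 5 were positive (median -0.12), with SQSTM1 at 0.38. In the last 3 of these lists DESeq2 called none, and 3 of 16, 2 of 16 and 0 of 14 genes had an unadjusted p under 0.05.

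In U2932 at 18 h, 1 gene of all the lists was called by edgeR, beside 0.0182% of all genes. It was INSR, the insulin receptor and a FOXO target. INSR was at 0.0700 ± 0.0609 CPM in TK (SD, n = 3) against 0.670 CPM in the single DMSO library. Its log2 change was -3.15 with an adjusted p of 0.0371 in edgeR's quasi-likelihood test. The TK mean lies under the filter level of 0.288 CPM, so INSR was near the floor. With the filter at 50 counts this contrast had 1 gene called. DESeq2 called INSR and DEPDC5, a GATOR1 subunit, beside 0.5% of all genes. At 8 h no gene of any list was called in either line by edgeR or DESeq2, with at most 2 genes of a list at an unadjusted p under 0.05. The plot of the lists sets the 5 genes beside them.

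**Figure D4:**
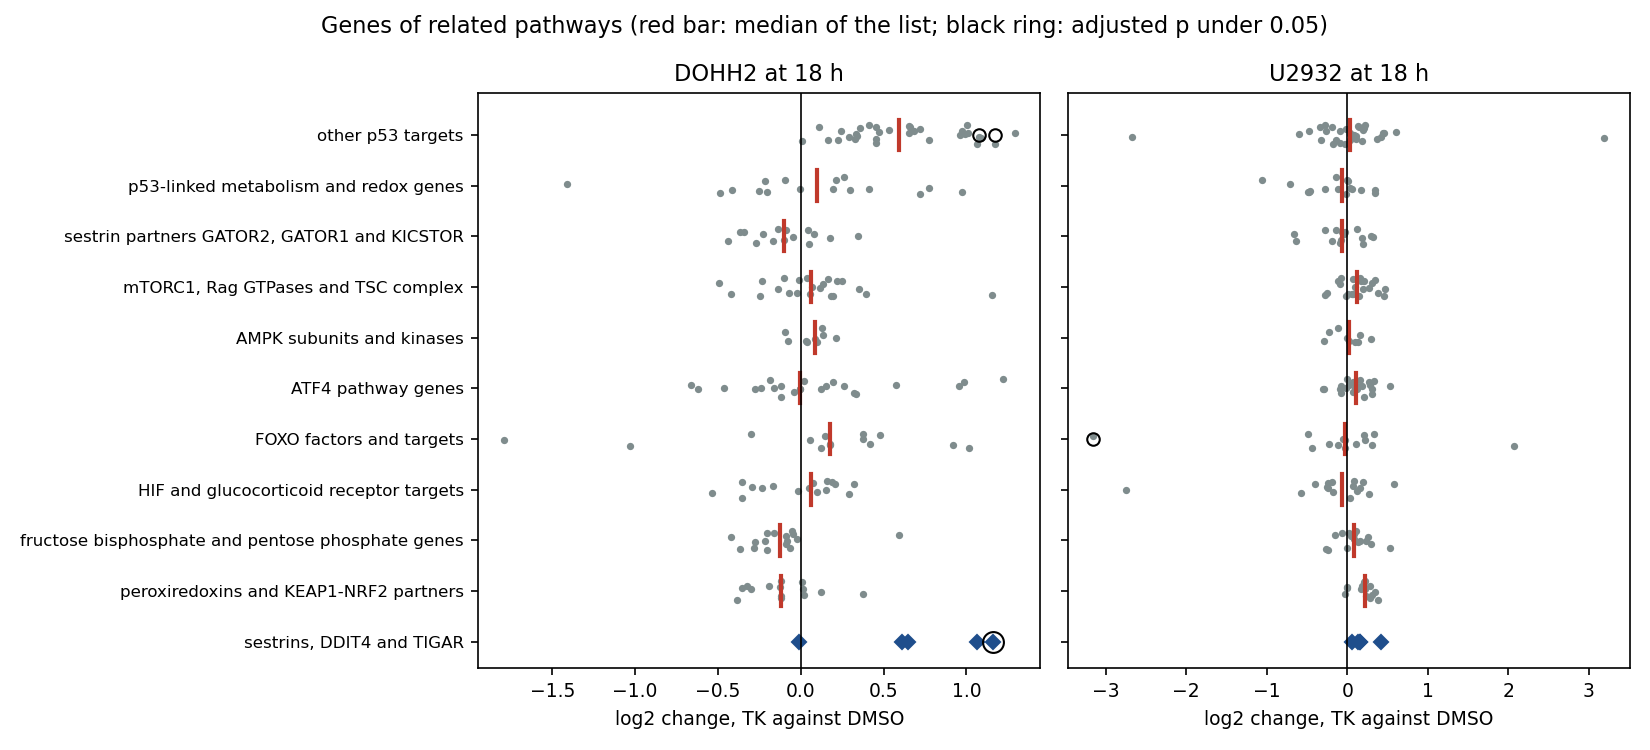
Log2 change with TK against DMSO at 18 h (horizontal axis) in DOHH2 (left) and U2932 (right) for the tested genes of 10 lists and the 5 genes; each point is a gene, the red bar a list's median and a black ring an adjusted p under 0.05. In DOHH2 all 32 other p53 targets lie above 0, with a median of 0.59, and the medians of the other lists lie between -0.13 and 0.18. The lists were chosen with earlier results of these data known.

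The genes whose levels went most like those of each of the 5 were found by Pearson's r of log2 CPM over the 20 libraries, after each line's mean was taken off, among 9861 genes. These are descriptions, since all points share libraries, depth and the TK libraries of 18 h. For SESN1 they were MDM2 (r = 0.89), the ubiquitin conjugating enzyme UBE2H (0.88) and ZNF608 (0.86). Over the 17 libraries without DOHH2 TK 18 h these values were 0.31, 0.29 and 0.47. For SESN2 they were TOX4 (0.90), BBC3, the p53-induced death gene PUMA (0.90), and ZFYVE1 (0.88), and without DOHH2 TK 18 h they were 0.48, 0.90 and 0.34. Without that group the value of BBC3 with SESN2 was thus unchanged to 2 decimals, and those of the other 5 genes were lower.

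For SESN3 the likest genes were KDM7A (r = 0.90), INTS6 (0.90) and FEZ2 (0.89), for DDIT4 TCF20 (0.90), HELZ2 (0.89) and WBP1L (0.87), and for TIGAR SH3GLB1 (0.88), LINC00667 (0.86) and VMP1 (0.83). Without DOHH2 TK 18 h these 9 values were between 0.78 and 0.88.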

How the data were processed

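The data are whole-number counts per gene for 20 libraries, deposited by the authors without normalisation, per the file contents. Per the submitters' processing notes the authors used STAR, HTSeq, edgeR and the genome GRCh38.p10. The annotation release, strand setting, counting mode and versions were not given in those notes or labels. From 32.7 to 62.7% of each library's counts stood in 5 summary rows that name no gene, which were left out.

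An edgeR 4.0.16 model in R 4.3.3 held all libraries (TMM, robust quasi-likelihood F test, 1 coefficient for each of 8 groups), over genes with at least 10 counts in the median library (0.288 CPM) in at least 3 libraries. The Benjamini-Hochberg adjustment ran over these 16478 genes, and an adjusted p under 0.05 was a call. Fits were tested on simulated data. Standard errors and 95% confidence intervals came from the fitted F statistics. RPKM used exon lengths of GENCODE v29 (GRCh38), whose identifiers of the 5 genes equal those in the files, and promoter sequences came from RefSeq on GRCh38.p14. Counts of 243 or more per library limit counting error.

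Alternatives were DESeq2 1.42.0, its size factors in edgeR (RLE), no filter, a filter at 50 counts, a replicate block, 1 line alone, DMSO of both times as control and leaving out each library. A fit without the DOHH2 TK libraries numbered 1, and likeness without DOHH2 TK 18 h, were chosen after seeing the data. The genes and lists were chosen with earlier results of these data known. Named from each list were up to 3 called genes with the largest change, or else the 1 with the smallest p, and for likeness the 3 genes with the highest Pearson r among those whose log2 CPM averaged 2 or more (prior count 2).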

Additional observations from a re-analysis of the deposited data

Results flagged for a closer look

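The change of SESN1 with TK in DOHH2 differed between the times: it was larger at 18 h than at 8 h by a log2 change of 1.18, by a test of the difference itself (adjusted p = 0.0408, edgeR's quasi-likelihood test). Its adjusted p was above 0.05 in all 11 fits that left out 1 DOHH2 library, between 0.0518 and 0.747. For none of the other 4 genes was the difference of the TK change between times or lines called in edgeR's test.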

How the results depend on the processing

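With TK in DOHH2 at 18 h, SESN1 kept its direction and call in every alternative but leaving out 1 library (1.13 to 1.19, the call lost without either DMSO library). SESN2 passed with no filter (1.04), with DMSO of both times as control (0.99), with DESeq2 (1.07), without the DOHH2 TK libraries numbered 1 (0.72) and without any one TK library of 18 h; leaving out each library gave 0.72 to 1.21. TIGAR passed with DESeq2 (0.66) and without the libraries numbered 1 (0.79), was at 0.38 with DMSO of both times (adjusted p = 0.174, edgeR), and ranged from 0.56 to 0.79 with a library left out; its adjusted p was at most 0.518 over the alternatives other than leaving out 1 library. DDIT4, near 0, turned positive with RLE scaling (0.00123), the filter at 50 counts (0.0158), DMSO of both times (0.16) and DESeq2 (0.00128), and ranged from -0.23 to 0.11 with a library left out. The causes were not tested. In the 14 contrasts DESeq2 added 3 calls over the 5 genes, these 2 and the difference of SESN1 between the lines at 18 h, and took none away.

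The count of genes called in DOHH2 at 18 h was 12, and 170 with no filter, 6 with 1 line only, 78 with DMSO of both times, 90 with DESeq2, 76 without the libraries numbered 1 and 1 to 18 with a library left out. In U2932 at 18 h it was 3, and 102 with no filter, 1 at 50 counts, 5 with 1 line only, 2109 with DMSO of both times, 60 with DESeq2 and 1 to 4 with a library left out. With no filter the 8 h counts were 32 in DOHH2 and 9 in U2932, against 0.

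Changes of sign of values that passed no test were these. In DOHH2 at 8 h, SESN1 was 0.00338 without the libraries numbered 1 and from -0.0863 to 0.0328 with a library left out, and SESN3 from -0.00128 to 0.38. In U2932 at 18 h, SESN1 was -0.00147 with no filter and -0.13 with DMSO of both times, where SESN3 was -0.30, and from -0.0742 to 0.175 with a library left out. In U2932 at 8 h leaving out a library gave SESN2 -0.0965 to 0.0525, DDIT4 -0.22 to 0.15 and TIGAR -0.0652 to 0.188. The differences between lines at 8 h were then -0.300 to 0.0749 for DDIT4 and -0.0142 to 0.239 for TIGAR, and that between times in DOHH2 was -0.0777 to 0.281 for DDIT4 (-0.0840 without the libraries numbered 1). Between 18 h and 8 h, SESN3 in DOHH2 DMSO was -0.261 to 0.0723, TIGAR in DOHH2 TK -0.0613 to 0.169, and in U2932 TK SESN1 was -0.156 to 0.0857, SESN2 -0.0286 to 0.0915, SESN3 -0.438 to 0.0794, DDIT4 -0.16 to 0.22 and TIGAR -0.0367 to 0.216.

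Replicate numbers are shared by the groups, but the labels do not say what a number marks. The deviations of same-numbered TK and DMSO libraries from their group means correlated at 0.30, 0.64 and -0.10 in DOHH2 at 8 h, where 2 of 3 TK libraries went best with their own number. They correlated at -0.01 and -0.00309 in DOHH2 at 18 h and at -0.06 and 0.30 in U2932 at 8 h. These mixed values do not settle whether the numbers pair the libraries. Because of the labels, the numbers were not taken as pairs in the main fit. A replicate block gave SESN1 1.16 (adjusted p = 0.00224, edgeR) and SESN2 1.06 (adjusted p = 0.0610, edgeR) in DOHH2 at 18 h, turned DDIT4 to 0.00996, called 11 genes there and 1 in U2932 at 18 h, and changed no call of the 5 genes. A single DMSO library in U2932 at 18 h could not be left out, and limits that contrast more than depth does.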

Other observations

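By Spearman's rho over the same 20 libraries and 9861 genes, after each line's mean was taken off, the genes most like SESN2 were BBC3 (0.89), FAM117A (0.83) and PPP1R15A (0.82), the last a phosphatase subunit of the ATF4 pathway. Those most like DDIT4 were WBP1L (0.89), TCF20 (0.85) and HELZ2 (0.83), the same 3 genes as by Pearson's r. For SESN3 the glucocorticoid receptor gene NR3C1 came first (0.94), and for TIGAR NUPL2 (0.92). SESN1 was most like ZNF608 (0.85), KDM5B (0.84) and TRIP12 (0.83), and without DOHH2 TK 18 h these were 0.49, 0.60 and 0.79. The other values named here were between 0.75 and 0.92 without that group. These values describe the libraries and have no test.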
